A study of Mus musculus with 24 samples.

Results

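Doxorubicin, a cancer drug that can damage the heart, changed the mouse heart transcriptome differently 16 h and 72 h after treatment, and the comparison described here sets those 2 changes against each other gene by gene. Its members are the 7407 genes that the count tables of both times hold, out of 10393 genes in the table of 16 h, 7723 in that of 72 h and 10709 in either. Beyond being listed in both tables, no value chose them; how the genes of each table were selected is not given in the sources used here. For each gene the log2 ratio of doxorubicin to vehicle at 16 h was subtracted from the same ratio at 72 h, so a positive difference means a higher ratio at the later time.

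The hearts came from wild-type mice, and each of 4 groups has 3 libraries: vehicle at 16 h, doxorubicin (25 mg/kg) at 16 h, vehicle at 72 h and doxorubicin (25 mg/kg) at 72 h. Vehicle is written V and doxorubicin DOX below. None of these mice received hesperitin, the other compound of the series, whose 12 samples enter no comparison here; 6 of its libraries at 16 h serve in 1 alternative fit as a further estimate of the spread. All groups share the wild-type genotype and poly(A)-selected RNA with an integrity number above 8. The labels give no strain, age or route of injection, and they do not say how many animals stand behind a library, and p-values therefore cover only the spread from library to library, which may be technical. Values are listed in the order of replicates 1, 2 and 3; in DOX at 72 h the last library carries a number that matches no label.

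Doxorubicin binds DNA and traps topoisomerase II on it, which leaves double-strand breaks. Cells answer DNA breaks through p53, a transcription factor that switches on Cdkn1a (p21, a brake on the cell cycle), pro-death genes such as Bax, and Mdm2, the ligase that removes p53 again. A working heart is made mostly of cardiomyocyte transcripts: sarcomere proteins, calcium pumps and channels, and the mitochondrial enzymes that supply their ATP. A strained heart is known to switch on fetal and stretch genes, among them Myh7, Nppb and Ankrd1.

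The libraries held 10285652 to 11074498 counts at 16 h and 16607839 to 20587603 at 72 h. The shared genes took 97.2% to 98.0% of the counts at 16 h and 82.4% to 85.8% at 72 h. Most of that gap lies in 4 nuclear copies of mitochondrial sequence, which took 12.1% to 15.5% of the counts at 72 h and are listed in that table alone. All 20 cardiomyocyte markers were among the shared genes, with a summed level of 60600 to 77400 CPM (counts scaled to one common library total, with TMM factors set within each table) in the 6 V libraries. In 4 libraries the light chain gene Myl4, typical of atrium, stood high: 279 and 199 CPM in DOX replicates 1 and 3 at 16 h, 104 CPM in V replicate 2 and 50.4 CPM in DOX replicate 2 at 72 h, against 0.7 to 19.8 CPM in the other 8. The liver gene Alb stood at 128 CPM in the unnumbered DOX library at 72 h. Each time has a table and a vehicle group of its own, so time and table cannot be told apart, and levels are set side by side between times without a test.

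At 16 h, 1569 of the 7407 genes (21.2%) rose with doxorubicin and 1935 (26.1%) fell, by edgeR's quasi-likelihood test at a Benjamini-Hochberg adjusted p threshold of 0.05. At 72 h, 2122 (28.6%) rose and 2188 (29.5%) fell. The change itself differed between the times for 2634 genes (35.6%), of which 1334 (18%) had the higher and 1300 (17.6%) the lower log2 ratio at 72 h. With library sizes alone in place of TMM factors the split was 2550 higher and 557 lower, and the median of all genes stood at 0.18 at 16 h, 0.42 at 72 h and 0.25 for the difference. Changes below are therefore relative to the TMM scale, on which those medians are -0.01, 0.01 and 0.03.

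The 3504 genes called at 16 h (47.3%) and the 4310 called at 72 h (58.2%) share 2268 genes, which is 64.7% of the first list and 52.6% of the second. In 1952 of these the direction was the same and in 316 it was opposite. Across the 7407 genes, which are not independent replicates, the log2 ratios of the 2 times correlated at a Pearson coefficient of 0.506 and a Spearman coefficient of 0.506. The 2 comparisons share no library.

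Combining the test at each time with the test of the difference sorts the genes into programmes. In all, 1465 genes were sustained (called at both times in the same direction, with no call for the difference), 629 up (8.49%) and 836 down (11.3%). A further 308 were growing (the same direction and larger at 72 h), 73 up (0.986%) and 235 down (3.17%), and 179 were fading (the same direction and smaller at 72 h), 51 up (0.689%) and 128 down (1.73%). Transient genes, called at 16 h alone and with a called difference, numbered 662, of which 340 were up (4.59%) and 322 down (4.35%). Delayed genes, called at 72 h alone and with a called difference, numbered 1105, of which 640 were up (8.64%) and 465 down (6.28%). Reversed genes, called in opposite directions, numbered 316: 172 rose and then fell (2.32%) and 144 fell and then rose (1.94%). Of the rest, 1511 were called at 1 time without a called difference and are left undecided, 64 had a called difference alone, and 1797 had no call.

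**Figure D1:**
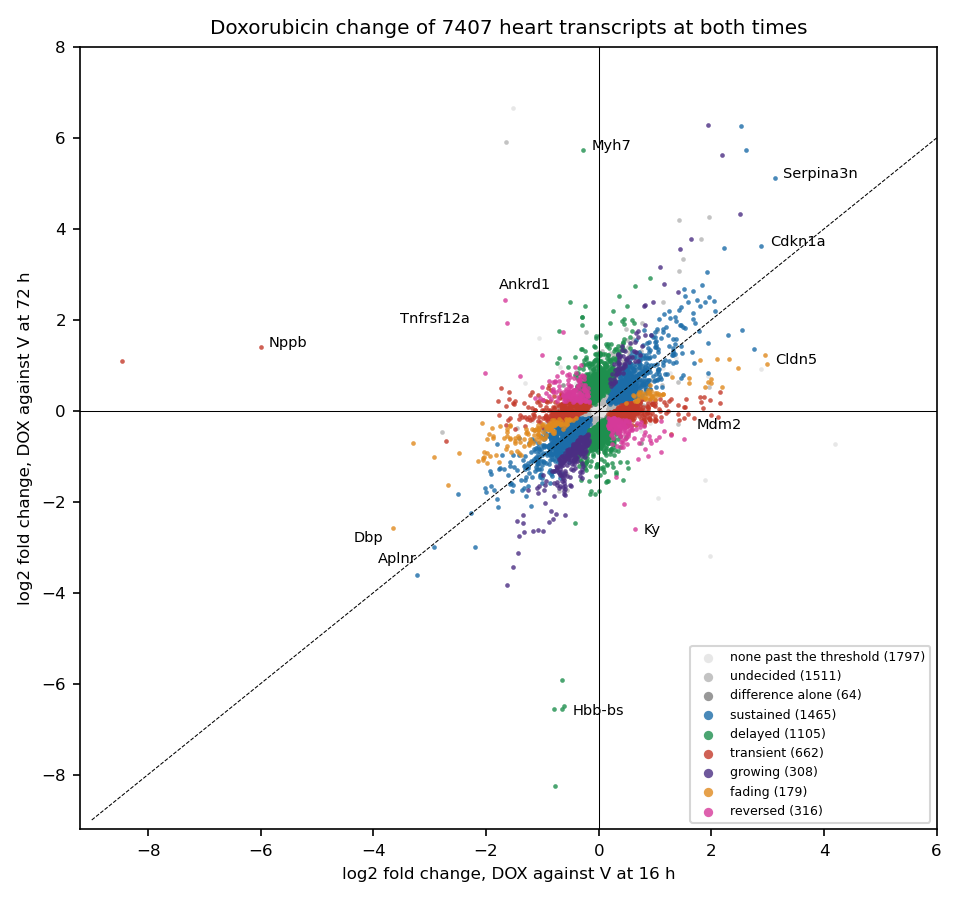
Log2 fold change of DOX against V at 16 h (horizontal axis) and 72 h (vertical axis) for each of the 7407 genes, coloured by programme; the dashed line marks equal change. Sustained genes lie along the line, transient genes along the horizontal axis, delayed genes along the vertical axis, and the 316 reversed genes fill the other 2 quadrants.

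Sustained genes include the p53 target Cdkn1a (p21), the acute phase protease inhibitor Serpina3n, and S100a8 and S100a9, the calprotectin subunits carried by neutrophils. Cdkn1a (ENSMUSG00000023067, chromosome 17 from 29090976 to 29100727 in GRCm38) read 37.4, 27.8 and 43.4 CPM in V and 330.4, 254 and 217 CPM in DOX at 16 h, and 5.72, 6.13 and 10.4 CPM in V and 91.1, 87.4 and 97.9 CPM in DOX at 72 h. Every DOX library lay above every V library of its time, with log2 fold changes of 2.88 ± 0.23 (SE; adjusted p = 4.09e-06) and 3.63 ± 0.25 (adjusted p = 1.19e-06), and the difference of 0.74 ± 0.32 was not past the threshold (adjusted p = 0.0956). The level in V at 72 h was below that in V at 16 h, and so was the level in DOX. Serpina3n read 5.53, 15.4 and 8.88 CPM in V and 196, 34.8 and 31.3 CPM in DOX at 16 h, and 4.03, 4.85 and 7.02 CPM in V and 229, 105 and 222 CPM in DOX at 72 h. In DOX at 16 h replicate 1 stood far above the other 2, while at 72 h all 3 DOX libraries were high, and the log2 fold changes were 3.12 ± 0.82 (adjusted p = 0.0131) and 5.12 ± 0.86 (adjusted p = 0.0009). The difference of 2.001 ± 1.16 did not pass (adjusted p = 0.21).

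The acute phase and gp130 list, which holds targets and parts of interleukin 6 signalling, had 19 of its 30 genes in both tables. At 16 h 11 rose and at 72 h 15 rose, against 21.2% and 28.6% of all genes. None fell at either time, and the medians of the list were 0.57 and 1.25. From the table of 16 h to that of 72 h the V levels of the list shifted by a median of -0.56 on the log2 scale and the DOX levels by 0.27, and for 9 of the 19 the V level shifted more than the DOX level, against 27.1% of all genes. Osmr, the oncostatin M receptor, changed by 1.07 and 2.01, and the transcription factor Stat3 by 0.57 and 0.99, both sustained. The difference was called for 4 of the 19, all higher at 72 h, which is near the 18% of all genes that were higher. Leaving out 1 library at a time gave 2 to 10 called members, with 10 without DOX replicate 1 of 16 h. Those 4 were the NF-kappa-B inhibitor gene Nfkbia, the interleukin 1 receptor Il1r1, the secreted glycoprotein gene Lrg1 and the iron-scavenger gene Lcn2. Lrg1 read 32.9, 31.1 and 29.8 CPM in V and 32.7, 19.9 and 13.8 CPM in DOX at 16 h, and 19.5, 18.1 and 17.1 CPM in V and 106, 44.3 and 136 CPM in DOX at 72 h. At 16 h its groups overlapped (-0.50 ± 0.41, adjusted p = 0.342) and at 72 h they stood apart (2.38 ± 0.40, adjusted p = 0.000618), with a difference of 2.89 ± 0.57 (adjusted p = 0.00388).

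Of 15 neutrophil markers, 4 were among the shared genes, and all 4 rose at both times, against 21.2% of all genes at 16 h and 28.6% at 72 h. S100a8 read 11.2, 4.96 and 18.7 CPM in V and 79.4, 77.4 and 40.7 CPM in DOX at 16 h, and 0.584, 0.255 and 0.4 CPM in V and 34.3, 10.5 and 52.9 CPM in DOX at 72 h. Its log2 fold change was 2.52 at 16 h and 6.26 at 72 h, but the difference of 3.74 ± 1.30 missed the threshold (adjusted p = 0.0512). The larger ratio at 72 h came with a lower V group: the 4 markers summed to 17.8 to 58.9 CPM in V and 123 to 234 CPM in DOX at 16 h, and to 1.98 to 3.38 CPM in V and 48 to 228 CPM in DOX at 72 h. In these bulk samples, more or fewer cells of a type and more or less RNA per cell cannot be told apart. Of 25 macrophage and monocyte markers 15 were tested, of which 6 rose at 16 h and 14 at 72 h, against 21.2% and 28.6% of all genes. Csf1r, the receptor of macrophage growth factor, was called lower at both times (-0.61 and -0.40, but 0.02 at 72 h with library sizes alone). Only 1 of the 15, Lyve1, which lymphatic endothelium also expresses, had a called difference (0.68), against 35.6% of all genes. The count of called markers was 8 without all 4 libraries high in Myl4 and 0 to 3 when 1 library was left out.

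The 4 sustained falls whose smaller change of the 2 times was largest were Lrrc15, a leucine-rich repeat membrane protein gene, Aplnr, the apelin receptor, Fbxl22, a ubiquitin ligase adaptor of the cardiac Z-disc, and Cenpf, a centromere and microtubule-binding protein gene. Aplnr (ENSMUSG00000044338, chromosome 2 from 85136225 to 85139923) read 12.4, 14.7 and 12.3 CPM in V and 1.68, 2.17 and 1.34 CPM in DOX at 16 h, and 24.1, 18.8 and 14.8 CPM in V and 1.19, 2.4 and 3.69 CPM in DOX at 72 h. All DOX libraries lay below all V libraries at both times, and the log2 fold changes of -2.92 ± 0.36 (adjusted p = 3.85e-05) and -2.99 ± 0.31 (adjusted p = 6.5e-06) differed by -0.07 ± 0.50 (adjusted p = 0.929). Fbxl22 fell from 34, 36.1 and 40.9 CPM to 6.9, 7.06 and 8.98 CPM at 16 h, and from 35.1, 36.1 and 35.5 CPM to 5.02, 7.92 and 9.73 CPM at 72 h, which is nearly the same pair of levels (-2.27 and -2.24).

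Sustained falls also made up much of the glycolysis and glycogen list. Of its 32 tested genes 27 fell at 16 h and 26 at 72 h, against 26.1% and 29.5% of all genes. Of the 32, 18 were sustained, with Pfkfb3, a regulator of glycolytic rate, as the one among them that rose. With library sizes alone 15 of the 32 fell at 16 h, and 12 fell and 6 rose at 72 h. The muscle glucose transporter gene Slc2a4 (GLUT4) changed by -1.87 ± 0.12 and -1.74 ± 0.12, and the phosphofructokinase gene Pfkl by -0.91 and -0.77. Mitochondrial ribosomal protein genes, which make the translation machinery of the organelle, had 31 sustained members of 76 tested. Of those 76, 43 fell at 16 h and 56 at 72 h, with medians of -0.25 and -0.41, though the median at 72 h was 0.001 with library sizes alone. The 3 CISD genes, named for the family in the series title, were sustained and lower: Cisd1 by -0.29 and -0.33, Cisd2 by -0.26 and -0.41, and Cisd3 by -0.52 and -0.65. At 72 h Cisd1 and Cisd2 stood at 0.084 and 0.009 with library sizes alone, and leaving out 1 library at a time ended the 16 h call of Cisd2 in 4 of 12 cases.

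Growing genes moved the same way at both times and further at 72 h. Among the rises was Gpx3, a secreted glutathione peroxidase, which read 129.7, 147 and 123 CPM in V and 367, 189.6 and 288 CPM in DOX at 16 h, and 91, 155 and 106 CPM in V and 1400, 831 and 922 CPM in DOX at 72 h. The log2 fold change went from 1.08 ± 0.28 (adjusted p = 0.0103) to 3.16 ± 0.30 (adjusted p = 1.28e-05), a difference of 2.08 ± 0.40 (adjusted p = 0.00294). Apod, a lipid-binding apolipoprotein, rose by 1.64 and 3.78, and Thbs1, the matrix glycoprotein thrombospondin 1, by 1.44 and 3.56. Thbs1 was lower in V at 72 h (3.73, 4.79 and 6.51 CPM) than in V at 16 h (29.2, 39.1 and 58.3 CPM). Its difference of 2.12 was no longer called without the 4 libraries high in Myl4 (2.83), and that of Lcn2 (3.44, adjusted p = 0.0354) was lost in 9 of 12 fits that left out 1 library. Fth1, the heavy chain of the iron store ferritin, grew from 0.34 to 1.24 (difference 0.90 ± 0.13, adjusted p = 0.000309), and Gstm1 and Mgst1, glutathione transferases, from 0.34 to 1.22 and from 0.96 to 2.38. The antioxidant list as a whole had 13 of 36 members up and 6 down at 16 h, and 21 up and 5 down at 72 h, against 21.2% and 28.6% of all genes up. The change was higher at 72 h for 11 and lower for 1, against 18% and 17.6%.

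Growing falls numbered 235 and took in the MHC class II genes, sarcomere genes and mitochondrial enzymes. H2-Aa, H2-Ab1, H2-Eb1 and Cd74, which present antigen on dendritic cells, B cells and some macrophages, were the 4 class II genes in both tables, and all 4 fell at both times and further at 72 h. Cd74, the invariant chain, read 77.7, 107 and 76.1 CPM in V and 41.2, 40.9 and 59.1 CPM in DOX at 16 h, and 65, 68.1 and 73.3 CPM in V and 13.6, 9.87 and 14.5 CPM in DOX at 72 h. The groups stood apart at both times, and the log2 fold changes were -0.89 ± 0.18 (adjusted p = 0.00195) and -2.44 ± 0.19 (adjusted p = 1.57e-06), with a difference of -1.56 ± 0.26 (adjusted p = 0.00105). Without the 4 libraries high in Myl4, 2 of the 4 kept a called difference. Only 1 of 11 B cell markers was in both tables, and it stood at 10.3 to 19.1 CPM in all 4 groups with no call. The part of B cells or of other antigen-presenting cells in the fall was not tested.

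Mylk4, a muscle kinase gene, and Efnb3, which encodes the membrane ligand ephrin B3, led the growing falls by size of the difference. Mylk4 (ENSMUSG00000044951, chromosome 13 from 32700834 to 32783954) read 244, 256 and 248 CPM in V and 65.7, 72.8 and 103 CPM in DOX at 16 h, and 333, 284 and 272 CPM in V and 14.8, 21 and 26.7 CPM in DOX at 72 h. It changed by -1.63 at 16 h and by -3.83 at 72 h, a difference of -2.20 ± 0.28 (adjusted p = 0.000292). Myh6, the fast myosin heavy chain of the adult mouse heart, read 20960, 16930 and 19670 CPM in V and 8036, 7845 and 7020 CPM in DOX at 16 h, and 17680, 13130 and 12950 CPM in V and 2057, 2843 and 2043 CPM in DOX at 72 h. It changed by -1.33 ± 0.15 and -2.66 ± 0.16 (difference -1.33 ± 0.21, adjusted p = 0.000752), and reads shared with the similar gene Myh7 could not be checked in these counts. Cardiomyocyte markers had 18 of 20 members down at 16 h and 14 down at 72 h, against 26.1% and 29.5% of all genes, but their programmes split. Of the 20, 9 were growing falls and 4 transient falls, against 3.17% and 4.35% of all genes. The growing falls include Myh6, the myosin light chains Myl2 and Myl3, the actin Actc1, the calcium release channel Ryr2 and the creatine kinase Ckm. The 20 markers summed to 70100 to 77400 CPM in V and 40700 to 44200 CPM in DOX at 16 h. At 72 h they summed to 60600 to 66100 CPM in V and 28700 to 33600 CPM in DOX.

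In the citric acid cycle and pyruvate oxidation list, 22 of 28 genes fell at 16 h and 25 at 72 h, and 17 had a lower change at 72 h, against 17.6% of all genes. The medians were -0.27 and -0.56. By programme, 11 were growing, 8 sustained and 6 delayed. Citrate synthase, Cs, read 1243, 1095 and 1210 CPM in V and 961, 1030 and 909 CPM in DOX at 16 h, and 973, 843 and 830 CPM in V and 392, 379.7 and 423 CPM in DOX at 72 h. At 16 h the groups were close but apart (-0.29 ± 0.08, adjusted p = 0.0115), and at 72 h the gap was wide (-1.15 ± 0.08, adjusted p = 6.15e-07), a difference of -0.85 ± 0.12 (adjusted p = 0.000247). Sucla2, a succinyl-CoA ligase subunit, was delayed (-0.09 and -0.68). With library sizes alone 10 of the 28 had a called difference instead of 19.

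The 13 mRNAs of the mitochondrial genome itself also fell further at 72 h. Of these 8 fell at 16 h and all 13 at 72 h, against 26.1% and 29.5% of all genes. A lower change at 72 h was called for 10, against 17.6%, and the medians were -0.29 and -0.81. With library sizes alone 2 of the 13 fell at 16 h (median -0.09) and 10 at 72 h (median -0.39). On that scale 10 still had a lower change at 72 h. mt-Nd2, a complex I subunit, read 30080, 29990 and 32940 CPM in V and 27030, 27960 and 24050 CPM in DOX at 16 h, and 34200, 29900 and 30750 CPM in V and 16650, 14240 and 16310 CPM in DOX at 72 h. Its log2 fold changes were -0.23 ± 0.09 (adjusted p = 0.0395) and -1.01 ± 0.09 (adjusted p = 1.56e-06). The 4 nuclear copies of mitochondrial sequence were listed at 72 h alone, and their part in these values was not tested. Branched-chain amino acid catabolism showed 16 of 18 genes down at 72 h and 11 at 16 h, with Dbt, the core of the branched-chain dehydrogenase, at -0.42 and -1.26.

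Fading genes changed strongly at 16 h and less at 72 h. Cldn5, a tight-junction protein of endothelium, read 11.1, 8.9 and 11.8 CPM in V and 89, 83.8 and 78.4 CPM in DOX at 16 h, and 5.02, 7.98 and 6.85 CPM in V and 14.2, 14.2 and 12.2 CPM in DOX at 72 h. It rose by 2.99 ± 0.14 at 16 h (adjusted p = 4.32e-08) and by 1.03 ± 0.14 at 72 h (adjusted p = 6.45e-05), a difference of -1.96 ± 0.20 (adjusted p = 4.53e-05). The other 26 endothelial markers tested did not share that course. Of all 27, 5 rose at 16 h and 18 at 72 h, against 21.2% and 28.6% of all genes. A higher change at 72 h was called for 9 of the 27 markers, against 18%. Their summed level was 4000 to 4220 CPM in V and 3950 to 4660 CPM in DOX at 16 h, and 3480 to 3590 CPM in V and 4900 to 6400 CPM in DOX at 72 h. Without V replicate 2 of 16 h, or without V replicate 1 of 72 h, 5 of the endothelial markers had a called difference instead of 10. Cd36, a fatty acid transporter of capillary endothelium and muscle, was delayed (-0.06 and 0.94).

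Among fading falls, Lrrc10, a cardiomyocyte gene of the Z-disc, read 130.3, 117 and 132 CPM in V and 12.3, 20.3 and 17.2 CPM in DOX at 16 h, and 100, 109 and 79.3 CPM in V and 39.8, 56.7 and 47 CPM in DOX at 72 h. Its change of -2.93 ± 0.19 at 16 h was followed by -1.01 ± 0.17 at 72 h, a difference of 1.92 ± 0.25 (adjusted p = 0.000259). Tfrc, the transferrin receptor that imports iron, went from -2.48 to -0.93 (difference 1.56 ± 0.28, adjusted p = 0.00151), and this difference was not called without the 4 libraries high in Myl4. Over all genes 26.1% fell at 16 h and 29.5% at 72 h. Among 27 cardiac ion channel genes, 15 fell at 16 h and 22 at 72 h. Of these 5 were fading, among them Kcnq1, a repolarising potassium channel, which read 29.4, 25.9 and 27.8 CPM in V and 6.8, 5.89 and 8.31 CPM in DOX at 16 h, and 22.8, 21.9 and 19.9 CPM in V and 10.1, 12.6 and 11 CPM in DOX at 72 h. It changed by -1.98 ± 0.13 and then -0.94 ± 0.11 (difference 1.04 ± 0.17, adjusted p = 0.000742). Kcnd2 and Kcnh2, other repolarising channels, were sustained (-1.81 and -1.93, -1.10 and -1.24), and Kcnj3, a subunit of an acetylcholine-gated channel, was delayed (0.31 and -1.40).

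**Figure D2:**
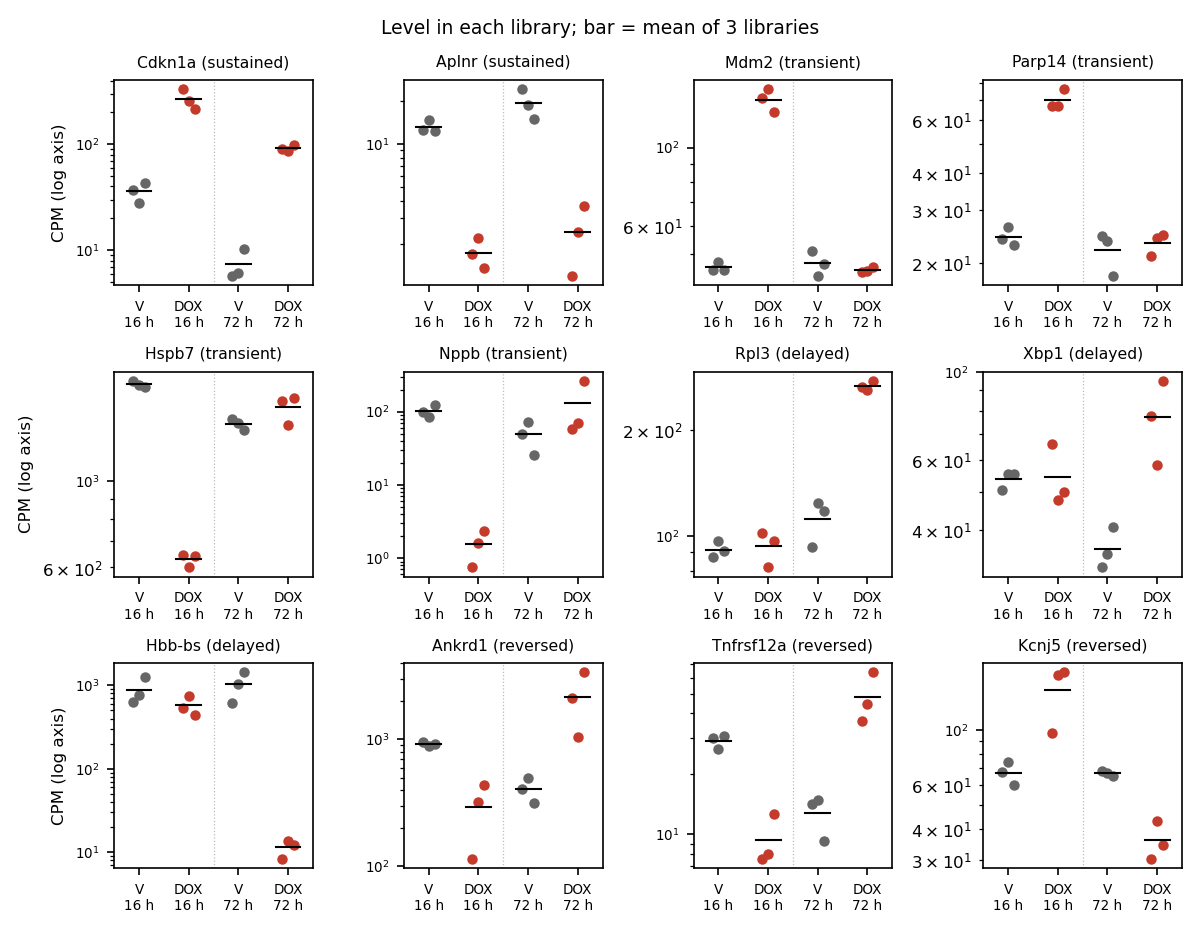
Level of 12 genes in each of the 12 libraries (points; TMM-scaled CPM, log axis) with the mean of 3 libraries (bar); the vertical dotted line separates the tables of 16 h and 72 h. Mdm2 and Parp14 are high in DOX at 16 h alone, Hbb-bs is low in DOX at 72 h alone, and Ankrd1 and Tnfrsf12a lie below V at 16 h and above V at 72 h.

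The p53 targets rose early, and for about as many of them the rise was transient as sustained. Of 40 targets in the list 21 were in both tables. At 16 h 15 rose and none fell, against 21.2% of all genes rising, with a median of 1.03; at an unadjusted p under 0.05 edgeR counted 16 up and 1 down. At 72 h the median was 0.23, and 10 rose and 3 fell, against 28.6% and 29.5% of all genes. For 11 the change was lower at 72 h and for 1 it was higher, against 17.6% and 18% of all genes. Mdm2 (ENSMUSG00000020184, chromosome 10 from 117688875 to 117710758) read 45, 47.4 and 44.8 CPM in V and 138, 146 and 126 CPM in DOX at 16 h, and 50.8, 43.2 and 46.7 CPM in V and 44.5, 44.6 and 45.7 CPM in DOX at 72 h. The DOX libraries at 16 h stood far above V, and at 72 h the groups overlapped. The log2 fold changes were 1.58 ± 0.08 (adjusted p = 4.32e-08) and -0.06 ± 0.07 (adjusted p = 0.491), with a difference of -1.64 ± 0.11 (adjusted p = 1.74e-06).

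The other p53 targets split between courses. Aen, a nuclease induced in apoptosis, and Ei24, a membrane protein of the endoplasmic reticulum, were transient like Mdm2 (1.97 and 0.23, 1.54 and 0.08). Bax and Phlda3, which promote cell death, faded from 1.80 to 1.11 and from 2.96 to 1.23. Cdkn1a and the death receptor gene Fas were sustained, Fas at 1.36 and 1.48. Ccng1, cyclin G1, reversed. It read 994, 982 and 1009 CPM in V and 1158, 1259 and 1265 CPM in DOX at 16 h, and 1042, 1048 and 1094 CPM in V and 371, 386 and 408 CPM in DOX at 72 h. All DOX libraries were above V at 16 h and below V at 72 h, with a difference of -1.75 ± 0.09 (adjusted p = 4.19e-07). By programme, 6 of the 21 were transient, 5 sustained, 3 fading, 2 delayed and 1 reversed.

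Interferon-stimulated genes, which make antiviral proteins and immune GTPases, also rose early. Of 48 in the list 26 were tested. At 16 h 24 rose and none fell, and at 72 h 12 rose and 2 fell, against 21.2% and 28.6% of all genes rising. The medians of the list were 1.12 and 0.34. The change was lower at 72 h for 21 of 26, against 17.6% of all genes, and higher for none. By programme, 10 were transient, 8 fading, 4 sustained and 2 reversed. Parp14, an ADP-ribosyltransferase, read 24.1, 26.4 and 23 CPM in V and 66.8, 67.1 and 76.2 CPM in DOX at 16 h, and 24.6, 23.7 and 18.1 CPM in V and 21.2, 24.2 and 24.8 CPM in DOX at 72 h. It rose at 16 h (1.51 ± 0.11, adjusted p = 8.79e-07) and at 72 h its groups overlapped (0.08 ± 0.11, adjusted p = 0.55), with a difference of -1.43 ± 0.16 (adjusted p = 8.11e-05). Ifit2, an RNA-binding antiviral protein gene, faded from 1.99 to 0.62, Iigp1, an immune GTPase, from 2.002 to 0.70, and the membrane protein gene Ifitm3 was sustained (1.33 and 1.06). Gbp3, a guanylate-binding protein gene, reversed and read 6.12, 7.49 and 5.88 CPM in V and 11.8, 16.6 and 27.1 CPM in DOX at 16 h, and 10.7, 10.8 and 10.3 CPM in V and 6.89, 8.03 and 5.79 CPM in DOX at 72 h.

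**Figure D3:**
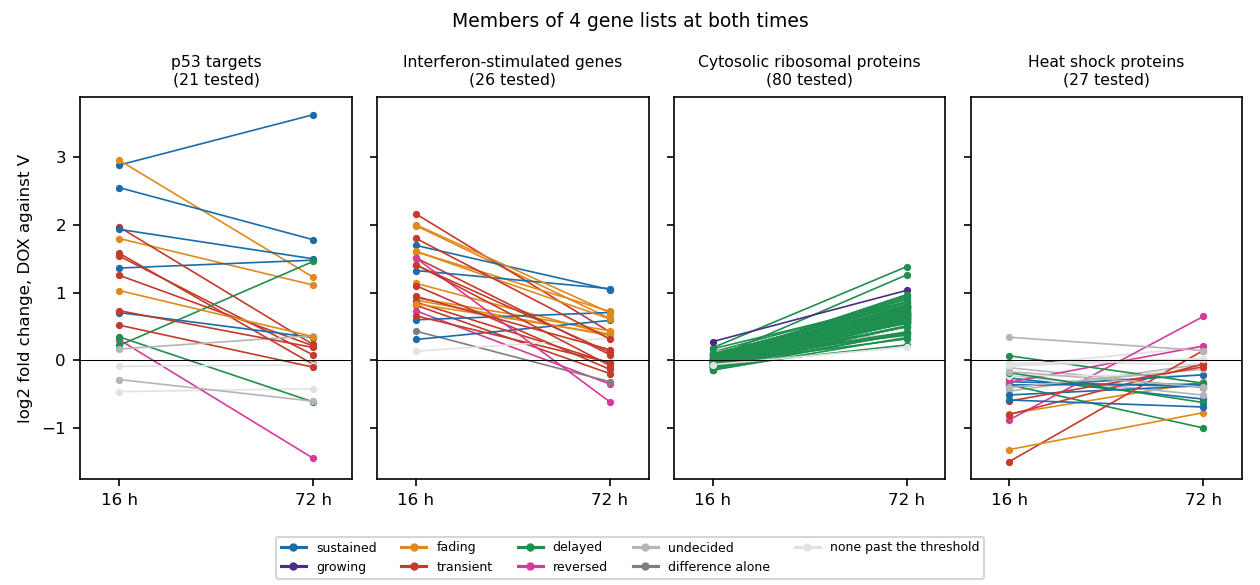
Log2 fold change of DOX against V at 16 h and 72 h for each tested member of 4 gene lists, 1 line a gene, coloured by programme. Most interferon-stimulated genes and p53 targets start high and come down, the 80 ribosomal protein genes start near 0 and rise, and the heat shock genes lie mostly below 0 with 2 reversed members.

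Many promoters of these genes hold the sequence named for the interferon response. The interferon-stimulated response element (ISRE) was searched as GAAA, any 2 bases and GAAA again on both strands, from 250 bases before to 50 bases after each RefSeq start (GRCm38.p6). It was found in 12 of the 20 list members with a promoter in the table (60%), in 3.44% of all 32851 promoters and in 3.58% of the tested genes with a promoter. Over all transient rises with a promoter it was found in 6.83%, over sustained rises in 5.38%, over delayed rises in 3.36% and over delayed falls in 1.89%. Ribosomal protein promoters held it in 7 of 59 (11.9%). Promoters of the MHC class I and immunoproteasome list held it in 5 of 13 (38.5%). Of the 14 tested genes of that list, 2 rose and 3 fell at 16 h, and 8 rose and 3 fell at 72 h. Over all genes 21.2% rose and 26.1% fell at 16 h, and 28.6% rose and 29.5% fell at 72 h. The change was higher at 72 h for 2 of the 14 and lower for 2, against 18% and 17.6% of all genes. Some stretches of the interferon list are shown because its genes move together at 16 h. Each line gives the 120 bases before the start, with the ISRE in capitals. Capitals that begin with TTTC are the motif read on the other strand.
Gbp3 (chr3:142559924-142560043, plus strand): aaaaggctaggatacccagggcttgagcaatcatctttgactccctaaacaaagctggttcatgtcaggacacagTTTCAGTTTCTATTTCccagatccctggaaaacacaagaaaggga
Gbp2 (chr3:142620543-142620662, plus strand): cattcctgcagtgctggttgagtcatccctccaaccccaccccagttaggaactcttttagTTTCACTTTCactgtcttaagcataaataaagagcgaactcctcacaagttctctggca
Gbp7 (chr3:142530216-142530335, plus strand): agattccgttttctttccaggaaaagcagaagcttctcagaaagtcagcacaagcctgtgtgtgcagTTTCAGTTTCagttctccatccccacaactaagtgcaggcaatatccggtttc
Igtp (chr11:58199436-58199555, plus strand): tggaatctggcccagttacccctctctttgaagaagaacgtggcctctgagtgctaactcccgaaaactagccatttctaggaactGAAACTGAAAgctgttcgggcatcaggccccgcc
Irgm1 (chr11:48871421-48871540, minus strand): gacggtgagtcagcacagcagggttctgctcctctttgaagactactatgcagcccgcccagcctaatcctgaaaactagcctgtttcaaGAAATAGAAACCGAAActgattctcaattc
Gbp3 and Irgm1 have 2 overlapping copies. The GBP and IRG genes are close relatives in clusters on chromosomes 3 and 11, and how the authors' counting divided reads between them is not given in the sources used here. Gbp2, Gbp7, Igtp and Irgm1 were transient, with changes at 16 h of 1.10, 1.41, 1.80 and 0.94 and at 72 h of -0.14, -0.08, 0.31 and 0.16. DOX replicate 1 was the lowest of the 3 DOX libraries at 16 h for each of these 5 genes, for example 23.6, 48 and 59.9 CPM of Gbp7.

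Other transient rises were Fat1, an atypical cadherin, and Slc40a1, the iron exporter ferroportin. Fat1 read 30.5, 29.7 and 26.5 CPM in V and 103, 121 and 119.5 CPM in DOX at 16 h, and 20.7, 19.6 and 19.6 CPM in V and 16.6, 22.1 and 17.4 CPM in DOX at 72 h. The DOX group at 16 h stood alone, and the difference was -2.08 ± 0.15 (adjusted p = 4.23e-06). Slc40a1 read 21.5, 19.9 and 26.9 CPM in V and 101, 126 and 74.7 CPM in DOX at 16 h, and 26, 24.2 and 29 CPM in V and 37.5, 20.3 and 31 CPM in DOX at 72 h, with a difference of -1.98 ± 0.34 (adjusted p = 0.00149). Top2b, the topoisomerase II of cells that do not divide, rose slightly at 16 h (0.28 ± 0.07, adjusted p = 0.00661) and stood at -0.05 at 72 h. Its difference of -0.33 (adjusted p = 0.0219) was not called without V replicate 1 of 72 h (-0.31). Top1 and Atm, the kinase that senses DNA breaks, were transient too (0.36 and -0.12, 0.59 and -0.31).

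Transient falls were genes low in DOX at 16 h and back within reach of V at 72 h. Hspb7, a small heat shock protein of cardiac muscle, read 1814, 1769 and 1752 CPM in V and 645, 600 and 643 CPM in DOX at 16 h, and 1444, 1412 and 1354 CPM in V and 1614, 1394 and 1642 CPM in DOX at 72 h. It changed by -1.50 at 16 h (adjusted p = 4.32e-08) and stood at 0.14 ± 0.07 at 72 h (adjusted p = 0.0998), a difference of 1.64 ± 0.10 (adjusted p = 1.74e-06). Nppb, which encodes the natriuretic peptide BNP, read 99.8, 85.2 and 125 CPM in V and 0.746, 1.63 and 2.35 CPM in DOX at 16 h, and 49.8, 72.4 and 25.4 CPM in V and 57.2, 70.9 and 264 CPM in DOX at 72 h. In DOX at 16 h it was at the edge of detection, and at 72 h the groups overlapped, with 1 DOX library of 264 CPM. The log2 fold changes were -6.004 ± 0.89 (adjusted p = 0.000596) and 1.41 ± 0.59 (adjusted p = 0.0687), and the difference was 7.41 ± 1.08 (adjusted p = 0.00113). Nppa, its atrial relative, had no call at either time; it read up to 824 CPM in DOX replicate 1 at 16 h and 404 CPM in V replicate 2 at 72 h, which are libraries high in Myl4.

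Plin5, a lipid droplet protein of oxidative muscle, went from -1.73 to 0.50 (difference 2.23 ± 0.30, adjusted p = 0.000413). Cacna1c, the L-type calcium channel of the heart, went from -1.36 to -0.13. Of 29 sarcomere genes 26 fell at 16 h and 17 at 72 h, against 26.1% and 29.5% of all genes. Over all genes 19.8% were sustained, 4.16% growing, 8.94% transient and 2.42% fading. In the sarcomere list 7 were sustained, 7 growing, 6 transient and 3 fading, so the list as a whole had no single course. Its transient falls include Mylk3, the cardiac myosin light chain kinase (-1.07 and -0.22). Per2, a repressor of the circadian clock, read 32.5, 34.4 and 34.9 CPM in V and 15.2, 12.9 and 15.1 CPM in DOX at 16 h, and 23.4, 27.8 and 29.5 CPM in V and 26.5, 26.6 and 20.4 CPM in DOX at 72 h and was a transient fall, whereas the clock output factor Dbp fell at both times (-3.64 and -2.58). The difference for Dbp (1.06, adjusted p = 0.0278) was lost in 7 of 12 fits that left out 1 library. The hour of the day at which hearts were taken is not given.

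**Figure D4:**
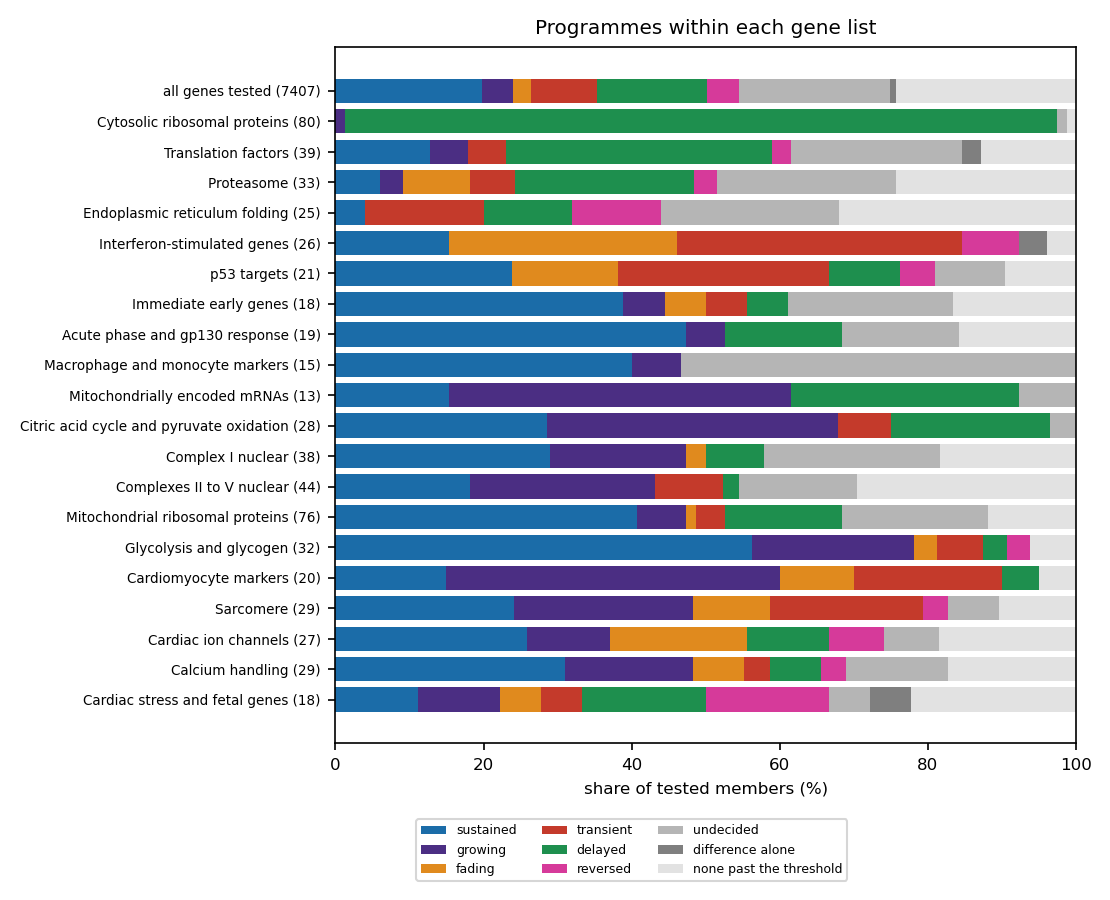
Share of tested members (horizontal axis, %) in each programme for 20 gene lists, with the number tested in parentheses and all 7407 genes in the top bar. Delayed genes fill nearly the whole bar of cytosolic ribosomal proteins (77 of 80), transient and fading genes most of that of interferon-stimulated genes (18 of 26), and sustained genes most of that of glycolysis (18 of 32).

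Delayed genes were led in number by the cytosolic ribosome. All 80 ribosomal protein genes of the list were tested. At 16 h 1 rose and none fell, with a median of -0.02. At 72 h 79 rose, against 28.6% of all genes, with a median of 0.66, and 78 had a higher change at 72 h, against 18%. Of the 80, 77 were delayed rises and Rps19 was growing. Rpl3, which lies at the catalytic centre of the large subunit, read 87.1, 96.8 and 91.1 CPM in V and 102, 81.6 and 96.9 CPM in DOX at 16 h, and 93.5, 124 and 118 CPM in V and 266, 261 and 276 CPM in DOX at 72 h. The V and DOX libraries overlapped at 16 h and were apart at 72 h, with log2 fold changes of 0.03 ± 0.11 (adjusted p = 0.84) and 1.26 ± 0.11 (adjusted p = 1.29e-06) and a difference of 1.23 ± 0.15 (adjusted p = 0.000131). Ribosomal protein genes have many processed copies in the genome, and how reads were divided between them is not given in the sources used here.

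Other parts of protein synthesis and turnover followed in part. Of 39 translation factors 11 rose and 3 fell at 16 h, and 23 rose and 4 fell at 72 h, against 21.2% and 28.6% of all genes rising. The change was higher at 72 h for 16 and lower for 4, against 18% and 17.6%. Eif3k and Eif3g, subunits of the initiation factor eIF3, went from -0.07 to 0.52 and from 0.01 to 0.48. Eif4ebp1, which holds the cap-binding factor eIF4E inactive, read 48.9, 43.2 and 51.1 CPM in V and 38.6, 44.2 and 37 CPM in DOX at 16 h, and 37.8, 50.7 and 39.3 CPM in V and 90.8, 80.5 and 85.1 CPM in DOX at 72 h and was delayed (difference 1.26 ± 0.16, adjusted p = 0.000159). Of 33 proteasome genes 3 rose and 8 fell at 16 h, and 18 rose and 3 fell at 72 h. The change was higher at 72 h for 15 of them and lower for none, as for Psma7 (0.06 and 0.60) and the ubiquitin receptor gene Psmd4 (0.34 and 1.08). With library sizes alone 29 of 33 had a called difference.

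In the endoplasmic reticulum folding list, 2 of 25 genes rose and 6 fell at 16 h, and 11 rose and 2 fell at 72 h. Over all genes 21.2% rose and 26.1% fell at 16 h, and 28.6% rose and 29.5% fell at 72 h. The share of the list that fell at 16 h is near that of all genes. Xbp1, a transcription factor of the unfolded protein response, read 50.6, 55.3 and 55.4 CPM in V and 66.1, 47.6 and 49.8 CPM in DOX at 16 h, and 32.2, 34.9 and 40.6 CPM in V and 77.5, 58.4 and 95.1 CPM in DOX at 72 h. It was delayed, with 0.02 ± 0.17 at 16 h (adjusted p = 0.935) and 1.10 ± 0.17 at 72 h (adjusted p = 0.000196). Its V group was also lower at 72 h than at 16 h. Manf, a secreted stress factor of the same compartment, went from -0.70 to 1.16, and P4hb, a disulfide isomerase, reversed (-0.32 and 0.34). Without DOX replicate 2 or V replicate 3 of 16 h, 6 of the 25 had a called difference instead of 10. Of these 25 genes 14 had V levels that shifted more between the tables than DOX levels did; over all genes tested this held for 2008 of 7407 (27.1%), and over the 2634 genes with a called difference for 317 (12%).

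The fetal myosin Myh7 was the delayed rise with the largest difference. It read 454, 269 and 200.3 CPM in V and 78, 338 and 349 CPM in DOX at 16 h, and 58.8, 78.5 and 62.9 CPM in V and 3266, 3576 and 3778 CPM in DOX at 72 h. All DOX libraries at 72 h stood far above every other library, the V libraries of 72 h lay below those of 16 h, and the log2 fold changes were -0.27 ± 0.49 (adjusted p = 0.678) and 5.73 ± 0.60 (adjusted p = 4.79e-05), with a difference of 6.001 ± 0.75 (adjusted p = 0.000507). Nqo1, a quinone reductase under NRF2 control, went from 0.17 to 1.22. Pnpla2, the triglyceride lipase of lipid droplets, went from -0.12 to 0.70.

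The delayed falls with the largest differences were the red-cell genes. Hbb-bs, an adult beta-globin, read 628, 762 and 1247 CPM in V and 535, 746 and 444 CPM in DOX at 16 h, and 618, 1033 and 1435 CPM in V and 8.26, 13.6 and 12.3 CPM in DOX at 72 h. At 16 h the groups overlapped (-0.61 ± 0.35, adjusted p = 0.18), and at 72 h every DOX library stood far below every V library (-6.50 ± 0.46, adjusted p = 2.6e-06), a difference of -5.89 ± 0.55 (adjusted p = 0.000103). Alas2, the first enzyme of heme synthesis in red-cell precursors, read 14.5, 17.7 and 29.6 CPM in V and 10.5, 16 and 9.24 CPM in DOX at 16 h, and 16.7, 24.8 and 43.5 CPM in V and 0.274, 0.409 and 0.2 CPM in DOX at 72 h. Of 8 erythroid markers tested (of 15), 1, the transferrin receptor Tfrc, fell at 16 h and all 8 at 72 h, and the list summed to 1690 to 3100 CPM in V and 1180 to 1860 CPM in DOX at 16 h, against 1620 to 3700 CPM in V and 147 to 160 CPM in DOX at 72 h. Globin genes are near-identical copies, so single members are uncertain. Steap3, an iron reductase, was also delayed (0.08 and -1.25; difference -1.32 ± 0.13, adjusted p = 3.09e-05); it read 21.7, 26.2 and 23.6 CPM in V and 25.2, 25.1 and 25.3 CPM in DOX at 16 h, and 22.4, 21.7 and 22.9 CPM in V and 8.67, 9.05 and 10.5 CPM in DOX at 72 h.

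Among reversed genes, the largest difference for a fall followed by a rise was that of Ankrd1, a stretch-induced protein that binds titin in the sarcomere. Ankrd1 (ENSMUSG00000024803, chromosome 19 from 36111961 to 36120099) read 954, 891 and 921 CPM in V and 114, 320 and 437 CPM in DOX at 16 h, and 406, 495 and 314 CPM in V and 2114, 1041 and 3394 CPM in DOX at 72 h. The DOX libraries were all below V at 16 h and all above V at 72 h, with log2 fold changes of -1.67 ± 0.52 (adjusted p = 0.0255) and 2.43 ± 0.53 (adjusted p = 0.00352) and a difference of 4.10 ± 0.74 (adjusted p = 0.00287). Its relative Ankrd23 moved the same way (-1.004 and 1.24). Tnfrsf12a, the receptor of the cytokine TWEAK, read 30.1, 26.7 and 30.9 CPM in V and 7.55, 7.97 and 12.7 CPM in DOX at 16 h, and 14.2, 14.8 and 9.24 CPM in V and 36.6, 44.5 and 63.8 CPM in DOX at 72 h, with a difference of 3.55 ± 0.36 (adjusted p = 0.000103). For Ankrd1, Ankrd23 and Tnfrsf12a the V level was lower at 72 h than at 16 h as well.

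The cardiac stress and fetal list, to which Ankrd1, Ankrd23, Myh7 and Nppb belong, had 2 of 18 tested genes up and 8 down at 16 h, and 8 up and 3 down at 72 h. Over all genes 21.2% rose and 26.1% fell at 16 h, and 28.6% rose and 29.5% fell at 72 h. The change was higher at 72 h for 10 of the 18, against 18% of all genes, and the medians of the list were -0.29 and 0.42. From the table of 16 h to that of 72 h its V levels shifted by a median of -0.46 on the log2 scale and its DOX levels by 0.08. For 6 of the 18 the V level shifted more than the DOX level, against 27.1% of all genes. Des (desmin, the intermediate filament of muscle) also reversed (-0.33 and 0.45), and Csrp3, a Z-disc protein gene, was a fading fall (-1.76 and -0.33). Acta1, skeletal actin, had no call (-0.62 and -1.33). Among heat shock genes, Hspb1 read 108, 115 and 113 CPM in V and 73.3, 58.3 and 50.9 CPM in DOX at 16 h, and 90.2, 85.4 and 74.2 CPM in V and 139.9, 99.5 and 152 CPM in DOX at 72 h and reversed with a difference of 1.53 ± 0.22 (adjusted p = 0.000461), as did Cryab (-0.33 and 0.21).

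The rises that turned into falls were led by Ky, a muscle protein gene, Mfap3l, a membrane protein gene, Gbp3 and Kcnj5. Ky read 11.8, 12.2 and 12.7 CPM in V and 14.9, 19 and 23.3 CPM in DOX at 16 h, and 18.6, 13.3 and 11.8 CPM in V and 1.55, 3.37 and 2.29 CPM in DOX at 72 h, with a difference of -3.25 ± 0.35 (adjusted p = 7.38e-05). Kcnj5, a subunit of the acetylcholine-gated potassium channel, read 67.8, 74.2 and 59.8 CPM in V and 97.2, 166 and 171 CPM in DOX at 16 h, and 68.4, 66.9 and 65.1 CPM in V and 30.2, 43 and 34.4 CPM in DOX at 72 h. The DOX libraries lay above V at 16 h and below V at 72 h, by 1.10 ± 0.20 (adjusted p = 0.000888) and -0.90 ± 0.20 (adjusted p = 0.00236). Foxo3, a transcription factor of fasting and atrophy, went from 0.51 to -0.74, though its DOX replicate 3 lay within the V range at 16 h (207, 186 and 129.9 CPM against 121, 109 and 138 CPM).

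Among lists with a smaller share of called differences than all genes, of 18 immediate early genes, the first transcription factors to answer a stimulus, 12 rose at each time and none fell, and 7 were sustained, among them Klf4 (1.03 and 1.03) and Klf6 (0.80 and 0.76). The change differed for 4 of the 18 (2 higher and 2 lower), against 35.6% of all genes. Of 19 fibroblast markers none rose and 1 fell at 16 h, and 6 rose and 2 fell at 72 h, when 28.6% of all genes rose and 29.5% fell. The change was higher at 72 h for 4 of the 19 and lower for none, near the 18% of all genes that were higher. The plot of list medians places the interferon and p53 lists at one end of the difference and the acute phase, cardiac stress and ribosomal protein lists at the other.

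**Figure D5:**
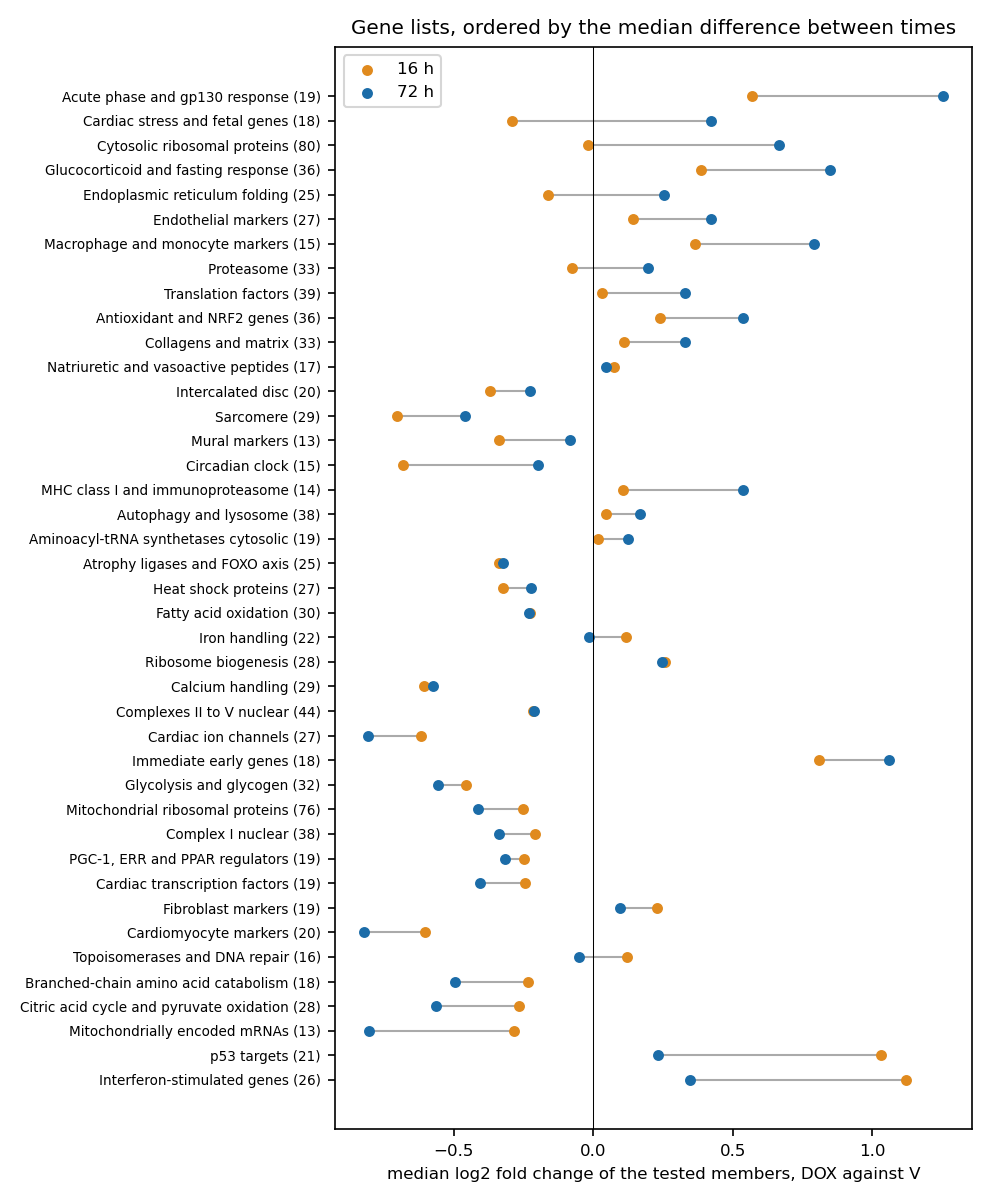
Median log2 fold change of DOX against V over the tested members of each gene list with at least 13 of them (number in parentheses), at 16 h and 72 h, ordered by the median difference between the times. Interferon-stimulated genes (1.12 and 0.34) and p53 targets (1.03 and 0.23) come down, and ribosomal proteins (-0.02 and 0.66) and cardiac stress genes (-0.29 and 0.42) go up.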

How the data were processed

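Heart RNA was sequenced as single-end reads, per the labels. The authors deposited expected counts per gene, 1 table a time; RSEM, DESeq2 and GRCm38 (mm10) are named in the submitters' processing notes, without versions. How the genes in each table were selected is not given in the sources used here. Expected counts were rounded. Library sizes and TMM factors were set within each table, and 12 libraries were fitted together by group with edgeR 4.0.16 (R 4.3.3) robust quasi-likelihood, 8 residual degrees of freedom, and Benjamini-Hochberg adjustment over 7407 genes at 0.05. The filter on low counts removed 0 genes. Log2 fold changes carry SEs taken from the F statistic, and CPM are TMM-scaled. The 18-library fit with the hesperitin groups of 16 h is an alternative, because an earlier report of these data described the combined-treatment libraries as far apart. Also tried were limma 3.58.1 voom, DESeq2 1.42.0, a replicate block, other scalings and filters, a threshold of 0.01 and leaving out each library. At 72 h, 6 columns matched no label and were not used. Members, gene lists and tests were chosen with earlier results of these data known. Genes named were the 4 with the largest differences per programme and direction (for sustained genes, the largest smaller change), among those with groups that did not overlap where called and a mean log2 CPM of at least 1, the members of each list with the smallest p, whether or not their groups overlap, and genes fixed by name. Members named beyond that rule, among them the promoters shown, Myl4, Actc1, Ckm, Myl2, Myl3, Ryr2, Rps19 and Alb, were picked after their values were seen. Motifs were searched from 250 bases before to 50 after RefSeq starts. The fit was checked on simulated counts. At 10285652 to 20587603 counts a library, replicates differed by a mean chi-square of 5.02 to 35.3 per gene, so none were counted as 1 sample. Genes with high counts weigh most in that mean. It does not give the part of counting error in the spread of genes with few counts. GENCODE gene models on GRCm38 gave the positions. Results for some genes are not reported here.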

Additional observations from a re-analysis of the deposited data

Results flagged for a closer look

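The doxorubicin change differed between 72 h and 16 h for 2634 genes, by the test of the difference itself. The 8 genes named as leading the reversed programme were called in opposite directions at the 2 times. Ankrd1 (4.10), Tnfrsf12a (3.55), Cpne1, a calcium-dependent membrane-binding protein gene (2.85), and Ankrd23 (2.24) fell at 16 h and rose at 72 h; the numbers are differences of log2 fold changes, 72 h minus 16 h. Ky (-3.25), Mfap3l (-2.50), Gbp3 (-2.13) and Kcnj5 (-2.00) rose at 16 h and fell at 72 h. The test of the difference kept its call for each of these 8 in all 25 alternatives, among them leaving out each library in turn. These 8 were picked for large differences in the same libraries, so the kept calls are no separate support. For these genes the separate calls at 16 h and at 72 h, which define a reversal, were not followed under the alternatives. Groups of 3 are too small for the test of a single library standing far from its group.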

How the results depend on the processing

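With library sizes alone, 2550 genes were higher and 557 lower at 72 h than at 16 h, 2996 rose and 998 fell at 16 h, 4883 rose and 704 fell at 72 h, 676 were growing and 421 transient. On that scale the 72 h changes of Aco1 (0.065), Cisd1 (0.084), Cisd2 (0.009), Csf1r (0.017), Enah (0.199), Hspe1 (0.044), Kcnj8 (0.043), Keap1 (0.035) and Trp53bp1 (0.185) changed sign, and so did several list medians, among them at 16 h ribosomal proteins, endoplasmic reticulum and proteasome, at 72 h heat shock and mitochondrial ribosome, and for the difference glycolysis, ion channels, cardiomyocyte markers and immediate early genes. With TMM factors over both tables jointly, 1244 genes were higher and 1396 lower at 72 h. With 18 libraries 1946 genes differed (1934 of them shared), and 181 were growing, 28 fading and 184 reversed. At a threshold of 0.01, 1531 genes differed (751 higher, 780 lower), 968 rose at 16 h, and 125 were growing, 60 fading, 431 transient, 725 delayed and 122 reversed. Without the 4 libraries high in Myl4, an alternative chosen after seeing the data, 2144 genes differed, 978 rose and 1258 fell at 16 h, and 919 were sustained, 191 growing and 105 fading; the cause was not tested. Leaving out 1 library at a time gave 2188 to 2728 differing genes and 204 to 343 growing ones, the lowest without V replicate 1 of 16 h. DESeq2 called 2584 genes (2463 shared) and voom 2529 (2508 shared). The deviations of same-numbered V and DOX libraries correlated at -0.15, -0.273 and -0.184 at 16 h and at 0.213 and 0.193 at 72 h. The sign was thus negative at 16 h and positive at 72 h, and the labels do not say what a shared number means. The replicate block gave 2385 differing genes, of which 2207 were shared. Of the tests of named genes under alternatives, 9053 kept direction and call, 336 lost the call and 9 changed sign.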

Other observations

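In the glucocorticoid and fasting list, 11 of 36 genes rose and 3 fell at 16 h, and 24 rose and 4 fell at 72 h, with medians of 0.38 and 0.85, and 9 had a higher and 4 a lower change at 72 h. Over all genes 21.2% rose and 26.1% fell at 16 h, 28.6% rose and 29.5% fell at 72 h, and 18% had a higher and 17.6% a lower change at 72 h. Of 33 collagen and matrix genes 7 rose and 5 fell at 16 h, 14 rose and 3 fell at 72 h, and 9 had a higher and 1 a lower change at 72 h. The share rising at 16 h is that of all genes. From the table of 16 h to that of 72 h their V levels shifted by a median of -0.473 on the log2 scale and their DOX levels by -0.466. For 15 of the 33 the V level shifted more than the DOX level, against 27.1% of all genes. Of 20 intercalated disc genes, which join cardiomyocytes end to end, none rose and 12 fell at 16 h, and 4 rose and 9 fell at 72 h. A higher change at 72 h was called for 8 and a lower one for 2, and 3 reversed. The median of -0.23 at 72 h became 0.19 with library sizes alone. Between the tables the V levels of these 20 genes shifted by a median of -0.232 and the DOX levels by -0.006, and for 10 the V level shifted more. Autophagy and lysosome genes had 10 of 38 up and 5 down at 16 h, and 17 up and 8 down at 72 h, with a higher change at 72 h for 9 and a lower one for 3; their share of rises at 16 h is near that of all genes.

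Delayed rises were shorter genes than delayed falls. The median span in the genome was 27.4 kb over all genes, 16.3 kb for delayed rises (19.1 kb without the ribosomal protein genes) and 35.4 kb for delayed falls. Transient rises had a median of 37.0 kb, reversed rises 40.2 kb and fading falls 44.9 kb. Across genes, which share libraries and are not independent, the Spearman correlation of span with the difference was -0.133, with the change at 72 h -0.142 and with the change at 16 h -0.00462. Transcript length correlated with the difference at -0.196, with the change at 72 h at -0.0947 and with the change at 16 h at 0.121, so span and transcript length both move with the difference, and neither was tested as a cause.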
